A study of Homo sapiens with 60 samples.

Results

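The replication-dependent histone genes were taken from the deposited expression table by name. A gene was a member when its symbol was a core histone family (H2A, H2B, H3 or H4) followed by the letter C and a number, or 1 of the linker histones H1-1 to H1-5. This rule used no measured value and found 68 genes of the 37334 in the table. Of the 68 genes, 40 reached 1 CPM (reads of the gene per 1000000 assigned reads) in at least 3 of the 60 libraries and were tested, among 15263 genes tested in all, and 28 were not tested.

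The cells were SH-SY5Y, a wild-type human neuroblastoma line that can be driven towards a neuron-like state, at passage 39, with 1 dish of 15 cm per replicate. Lead (Pb) was present from day 5 of differentiation onward at 0, 0.16, 1.26 or 10 µM, with fresh Pb at every change of medium, and cells were collected at days 6, 9, 12, 15 and 18. The 20 groups of day and dose held 3 replicates each. All groups shared the line, the passage and the differentiation protocol, and the 0 µM libraries of each day were the controls of that day.

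Replication-dependent histone genes make the bulk of the histones that package newly copied DNA, so their mRNAs accumulate in S phase and are degraded when replication stops. H2A, H2B, H3 and H4 form the nucleosome core and H1 sits on the linker DNA. Unlike other mRNAs, most of these transcripts end in a conserved stem-loop that binds the protein SLBP in place of a poly-A tail, and some members can also be read through to a downstream signal that gives a polyadenylated form.

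The stem-loop is the feature that sets this class of mRNA apart, so its forms are shown first. A pattern of 16 bases, with 2 arms of 6 bases that pair and a loop of 4, was found in GENCODE transcripts of 28 of the 68 members and of 0.378% of 56951 other genes. Capitals mark the paired arms.
stem-loop of H2AC25, H2AC6 and H2BC21 among 15 members: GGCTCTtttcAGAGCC
stem-loop of H4C5, H4C8 and H4C16 among 5 members: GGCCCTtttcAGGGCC
stem-loop of H3C8, H2BC5, H2BC4 and H2BC7: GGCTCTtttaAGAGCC
stem-loop of H4C9, H4C14 and H4C15: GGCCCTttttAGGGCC
stem-loop of H2AC11: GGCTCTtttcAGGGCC
The H2A, H2B and H3 members with a match carried a form whose arms begin with GGCTCT, and the H4 members a form whose arms begin with GGCCCT. For the other 40 members the pattern is not in the transcripts searched, many of which are annotated only to the end of the coding sequence or shortly past it.

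Library depth ran from 16.6 to 50.5 M assigned reads, so that 3 reads in 1 library corresponded to between 0.0594 and 0.181 CPM. These limits cover counting error only, since the reads carry no molecular identifiers. The library names of days 6 to 15 share 1 prefix and those of day 18 another, read here as 2 batches of an unstated kind. Day 18 against day 6 thus cannot be told apart from this split, whereas Pb was compared within a day and within 1 prefix. In 2 libraries, replicate 1 of day 18 without Pb and replicate 3 of day 6 with 10 µM, levels fell with transcript length (slopes of -0.425 and -0.393 log2 units per log10 of length, with the next lowest at -0.154), which bears on short genes such as these. Between 11 and 12 of 12 markers of noradrenergic neuroblastoma were at 1 CPM or more on average at each day, and 8 blood markers summed to at most 0.56 CPM in any library. Epithelial markers (8 genes) summed to between 22.9 and 44.4 CPM at days 6 to 15 and to between 81.5 and 129 CPM at day 18, where KRT5 was the highest, and KRT1 was at 0 in every library. Their part in the results at day 18 was not tested.

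One gene held most of the signal. H4C3, an H4 gene at chr6:26103933-26104337 of GRCh38, took 52.9% of the 671160 member reads over the 60 libraries, with a mean of 202 CPM and a range of 81.5 to 429 CPM. H2AC25, an H2A gene outside the large cluster, at chr1:228457364-228457873, followed with 42.6 CPM and 11.4% of the member reads. The linker histone gene H1-4 (chr6:26156329-26157115) had 13.6 CPM, and H2AC6 (chr6:26124172-26124690) 12.7 CPM. By family, the H4 genes held 55.7% of the member reads, H2A 19.5%, H2B 11.3%, H1 6.94% and H3 6.65%. The leading H2B genes were H2BC21 with 10.4 and H2BC5 with 10.2 CPM, and the leading H3 genes were H3C8 with 7.79 and H3C11 with 7.42 CPM. Levels of different genes were compared per kilobase of the shortest GENCODE basic transcript. On that scale H4C3 stood at 464 CPM per kb, H2AC25 at 47.6, H2BC5 at 20.6, H3C11 at 18.1 and H1-4 at 18, whereas H2AC6, whose annotated transcript is long, came to 8.68 and H2BC21 to 4.74. The GENCODE transcript of H2AC6 has 1462 bases and its RefSeq gene 519, and for H2AC25 the lengths are 895 and 510. The order of the genes below H4C3 on this scale therefore depends on the transcript chosen. Reads of H4C3 could be assigned without a competing copy, since none of its windows of 50 bases was found in another gene's transcript. The same share was 83.7% for H2AC14, 74.1% for H2BC12 and 100% for H4C14, so their levels are uncertain, as are those of H2BC12 and H4C9, which overlap each other, because the strand setting of the counting is not given in the sources used here.

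Of the 28 members that were not tested, 26 had at least 1 read and 2, H2BC1 and H4C7, had none in any library. Per family 1 of 5 H1, 8 of 17 H2A, 6 of 18 H2B, 4 of 13 H3 and 9 of 15 H4 genes were not tested. Together they held 0.968% of the member reads. H4C15 came closest by mean level, at 0.489 CPM with 1 library at 1 CPM or more, and H2BC14 and H4C11 had 2 such libraries. H2AC16 was the tested gene closest to the limit, with 4. Among the untested genes, every sequence window of H3C4, H3C14, H3C15 and H4C12 was also found in another gene's transcript. The share was 97.97% for H2AC7, 95.11% for H4C15, 86.34% for H2AC17, 81.17% for H4C11 and 80.39% for H3C13. The levels of these genes, which include all 4 untested H3 genes, are therefore uncertain. Other untested genes, such as H1-1, H2AC4, H2BC3, H2BC14, H4C1 and H4C6, shared no window. A gene that passed through the libraries of 1 group alone had to differ between groups, and 14 of the 40 tested members were at 1 CPM in fewer than 30 of the 60 libraries. Counts are therefore also given for the 30 tested members with a mean of at least 1 CPM over the 60 libraries.

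The members lie in clusters, and their promoters share sequence. In RefSeq, 54 of the 68 genes are on chromosome 6, 13 on chromosome 1 and 1, H4C16, on chromosome 12. Promoters (250 bases before to 50 after the annotated start) were found for 63 members in the RefSeq table of GRCh38.p14. The octamer ATTTGCAT, which the POU factor OCT1 reads in H2B promoters, was present on either strand in 14 of 18 H2B, 11 of 16 H2A and 1 of 11 H3 promoters, in none of 5 H1 and 13 H4 promoters, and in 1.8% of all 27305 promoters. CCAAT was in every H1, H2A, H2B and H3 promoter and in 3 of 13 H4 promoters, against 35.7% of all promoters. TATAAA was in 42 of 63 members and in 12% of all. None of the 3 motifs contains another, and a match is a description of the letters alone. Some H2A and H2B genes start less than 250 bases apart on opposite strands, so 1 site can be counted for both.

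The promoters of 4 members whose levels are followed through the time course show these letters in place. Capitals mark the octamer, CCAAT and TATAAA on either strand, and only the 250 bases before the start are printed. H2AC6 (chr6:26123922-26124171, plus strand) has the octamer at position -130 and TATAAA at -31 from the start. H2AC14 (chr6:27814778-27815027, minus strand) has them at -204 and -31. H2AC25 (chr1:228457874-228458123, minus strand) has CCAAT 3 times and neither of the others, and H1-4 (chr6:26156079-26156328, plus strand) has CCAAT and TATAAA without the octamer.
H2AC6: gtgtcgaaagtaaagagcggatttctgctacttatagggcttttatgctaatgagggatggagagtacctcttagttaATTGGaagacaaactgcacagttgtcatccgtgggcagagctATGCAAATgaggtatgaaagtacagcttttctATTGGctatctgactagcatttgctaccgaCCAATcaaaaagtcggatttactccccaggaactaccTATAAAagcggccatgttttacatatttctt
H2AC14: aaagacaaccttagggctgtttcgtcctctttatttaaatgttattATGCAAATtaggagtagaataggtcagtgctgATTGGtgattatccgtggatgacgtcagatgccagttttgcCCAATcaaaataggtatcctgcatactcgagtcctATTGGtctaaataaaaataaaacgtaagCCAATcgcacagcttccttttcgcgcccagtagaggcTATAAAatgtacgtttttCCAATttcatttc
H2AC25: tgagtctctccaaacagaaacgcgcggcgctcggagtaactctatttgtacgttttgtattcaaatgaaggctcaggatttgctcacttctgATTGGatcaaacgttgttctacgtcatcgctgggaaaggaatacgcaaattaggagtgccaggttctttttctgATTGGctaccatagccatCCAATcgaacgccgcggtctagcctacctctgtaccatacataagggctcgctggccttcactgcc
H1-4: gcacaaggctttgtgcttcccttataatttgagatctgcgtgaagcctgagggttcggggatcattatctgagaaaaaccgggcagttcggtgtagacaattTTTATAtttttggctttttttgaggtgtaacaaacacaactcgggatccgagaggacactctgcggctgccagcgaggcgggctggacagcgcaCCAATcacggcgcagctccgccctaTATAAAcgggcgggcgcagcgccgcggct

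The first 3 of these stretches each span the whole gap to an H2B gene that starts on the opposite strand. There were 11 such divergent pairs of H2A and H2B genes, with 193 to 247 bases between the annotated starts. The H2A gene had the higher mean level in 7 of the 11 pairs and the H2B gene in the other 4. H2AC25 stood at 42.6 CPM and its neighbour H2BC26 at 4.8 CPM. H2AC6 stood at 12.7 and H2BC4 at 1.05 CPM, and H2AC14 at 6.38 and H2BC14 at 0.403 CPM. The order was opposite for H2AC20 with 2.12 and H2BC21 with 10.4 CPM, and for H2AC7 with 0.0949 and H2BC7 with 1.34 CPM. Neighbours across a shared gap thus differed in level, and lengths differ as well, so the comparison holds in CPM alone. Per kilobase of the shortest transcript, H2AC20 stood at 5.44 and H2BC21 at 4.74, in the other order. The share of sequence windows found in another gene's transcript was 97.97% for H2AC7, 86.34% for H2AC17 and 83.73% for H2AC14. The levels of these H2A genes, and their order within the pairs, are therefore uncertain.

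**Figure D1:**
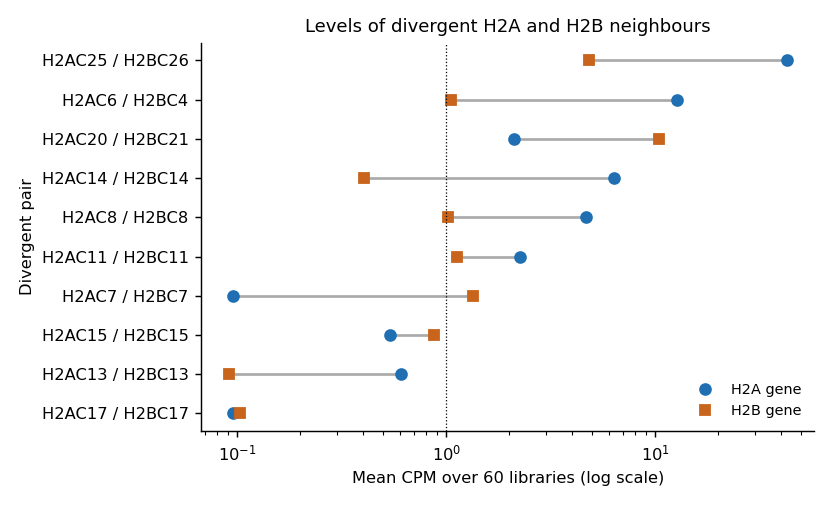
Mean CPM over the 60 libraries (log axis) of the H2A gene (circle) and the H2B gene (square) of 10 divergent pairs, joined by a grey line, with the dotted line at 1 CPM. H2AC1 and H2BC1, which had 1 read and none, are not drawn. In the pair H2AC25 and H2BC26 the values are 42.6 and 4.8 CPM.

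Without Pb, the summed level of the 68 genes stayed near its starting value at day 9 and was lower from day 12 onward. It was 526 ± 37.4 CPM (SD, n = 3) at day 6, 523 ± 40.8 at day 9, 346 ± 30.6 at day 12, 314 ± 47.9 at day 15 and 339 ± 31.8 at day 18. Sums of day 6 (501 to 569 CPM) did not overlap those of day 12 (320 to 380), day 15 (282 to 369) or day 18 (304 to 365). Without H4C3 the sum was 234 ± 11.1 CPM at day 6 and 250 ± 14.9 at day 9, then 152 ± 6.17, 159 ± 14.9 and 158 ± 9.93 CPM at days 12, 15 and 18. The genes that were not tested had a sum of 4.08 ± 0.898 CPM at day 6, 3.52 ± 0.6 at day 12 and 4.63 ± 0.445 at day 18. Their sums at day 6 (3.46 to 5.11 CPM) and day 12 (3.11 to 4.21 CPM) overlapped, so their course is not clear. In such bulk samples, fewer cells that express a gene and less RNA per cell cannot be told apart.

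**Figure D2:**
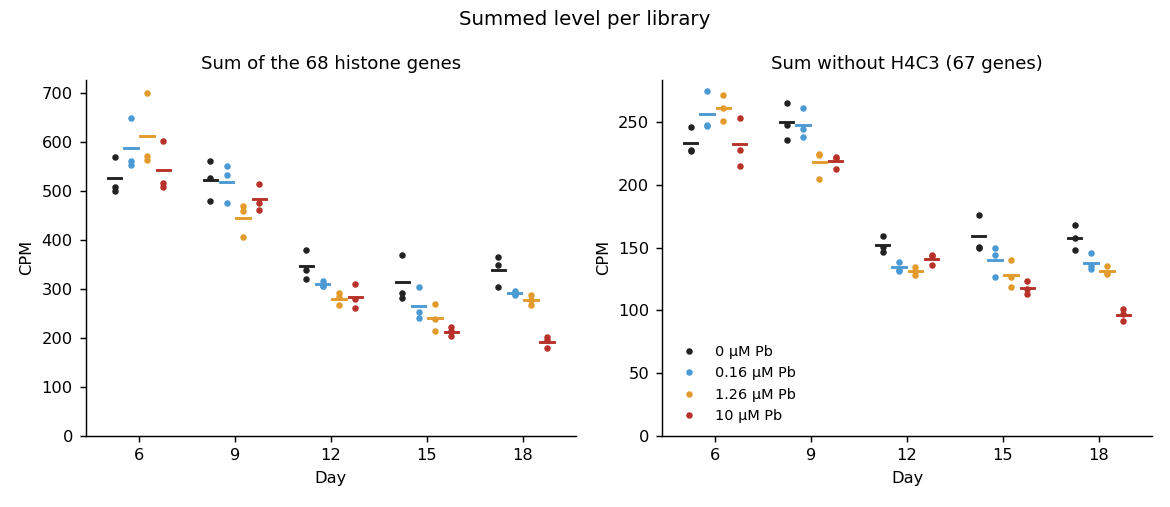
Summed CPM per library at each day, for all 68 genes (left) and without H4C3 (right), with 1 point per library, a bar at the mean of 3 libraries and colours for the Pb dose. Without Pb the sum is 526 CPM at day 6 and 339 CPM at day 18, and with 10 µM it is 192 CPM at day 18.

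At day 9, 2 of the 40 tested members were higher than at day 6 and none was lower, by limma with Benjamini-Hochberg adjustment over all genes tested. Among all genes 2.63% were higher and 2.51% lower. H2AC6, which makes H2A, was at 15.5, 13.1 and 15.6 CPM at day 6 and at 20.3, 23.1 and 20 CPM at day 9. All 3 later libraries were above the earlier ones, and H2AC6 rose by 0.49 ± 0.112 (log2, SE, adjusted p = 0.00317). H2AC25 was at 40.3, 47.2 and 52.9 CPM and then at 57.7, 60.4 and 63.9 CPM, without overlap, and rose by 0.37 ± 0.0878 (adjusted p = 0.00461). The call of H2AC25 was lost without replicate 1 of day 6 without Pb and when no other group entered the fit, which left 1 member each. The median over the 40 members was -0.01, against -0.00094 over all genes. All log2 changes here are on the log2(CPM + 1) scale, which understates those of low genes, and the p-values measure only the spread between these dishes.

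At day 12, 25 members were lower and 1 was higher than at day 6, where 34.6% of all genes were lower and 21.6% higher. The median over the 40 members was -0.46, against -0.11 over all genes. Of the 30 members with a mean of at least 1 CPM, 21 were lower and 1 higher. The linker genes H1-4, H1-3 and H1-5 fell, by 0.67 to 1.09, and H1-2 did not pass the test (0.1). H1-4 went from 21.5, 20.6 and 23 CPM at day 6 to 12.8, 13.7 and 12.7 CPM at day 12, with all later libraries below the earlier ones. Among the H2A genes 7 of 9 tested fell. H2AC6, after its rise at day 9, was at 6.49, 6.69 and 8.48 CPM, below every library of day 6, with a log2 change of -0.94 ± 0.112 (adjusted p = 7.45e-10). H2AC14 went from 12.3, 11.6 and 12.5 CPM to 5.6, 5.46 and 3.84 CPM and fell by 1.15 (adjusted p = 1.08e-07). H2AC25 fell by 0.37, to between 34.2 and 38.5 CPM.

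Of the H3 genes, 8 of 9 tested members fell at day 12, with a median of -0.57. H3C8 went from 13.5, 12.3 and 16.5 CPM to 6.84, 6.47 and 3.56 CPM, a log2 change of -1.22 ± 0.193 (adjusted p = 5.29e-07), and H3C11 from between 11.3 and 12.5 to between 4 and 5.49 CPM (-1.13). Of the H2B genes, 4 of 12 tested fell, a share near the 34.6% of all genes that were lower, with a median of -0.28. H2BC21 stayed within its earlier range or slightly above it, with 11.9, 11.4 and 10.1 CPM at day 6 and 12.1, 11 and 13.4 CPM at day 12, and did not pass the test (0.12, adjusted p = 0.451). Among 6 H4 genes 3 fell. H4C3 was at 281, 273 and 322 CPM at day 6 and at 221, 188 and 173 CPM at day 12 (-0.59 ± 0.136, adjusted p = 0.000263). H4C9 went from 7.33, 7.29 and 6.16 to 2.86, 2.22 and 2.44 CPM and fell by 1.18 (adjusted p = 9.01e-09). H4C14 rose from 1.28, 1.12 and 1.64 to 1.78, 2.37 and 2.44 CPM (0.45, adjusted p = 0.0171), a call that was lost without any 1 of 3 libraries, replicate 2 of day 6 and replicates 2 and 3 of day 12 without Pb. Whether the families differ was not tested.

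At day 15, 21 members were lower and 1 was higher than at day 6, against 32.2% and 26.2% of all genes, and the medians were -0.41 and -0.05. H1-4 was at 10.8, 9.1 and 11.2 CPM and fell by 1.00 ± 0.131 (adjusted p = 7.65e-09). H3C11 was at 3.42, 3.87 and 5.66 CPM, all below day 6, a change of -1.29 ± 0.176 (adjusted p = 1.98e-08). H2AC14 was at 4.37, 4.06 and 5.34 CPM (-1.24, adjusted p = 2.07e-08), and H4C3 at 140, 132 and 193 CPM (-0.93). H2AC6 parted from them and was back at 13.3, 14.2 and 12.6 CPM, within reach of its level at day 6, and did not pass the test (-0.13). The higher member was H4C14 with 2.04, 1.73 and 2.57 CPM (0.4, adjusted p = 0.0296), and this call was lost without any 1 of 4 libraries, replicates 1 and 2 of day 6 and replicates 1 and 3 of day 15 without Pb. It was also lost with no filter and with a correction for transcript length and GC content.

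At day 18, 21 members were lower and 1 higher than at day 6, against 34.7% and 32.1% of all genes, with medians of -0.42 and -0.03. All 4 tested H1 genes were lower, now with H1-2, which was at 7.2, 7.62 and 8.35 CPM at day 6 and at 4.87, 3.92 and 4.82 CPM at day 18 (-0.66 ± 0.144). H2AC14 was at 4.13, 4.02 and 3.38 CPM and fell by 1.44 ± 0.168 (adjusted p = 3.16e-10). H3C8 was at 4.1, 3.44 and 4.76 CPM, without overlap with day 6, and its change of -1.57 ± 0.193 was the lowest of the 40 members (adjusted p = 1.24e-09). H1-4 was at 13, 8.21 and 11.1 CPM (-0.97). H3C11 was at 8.34, 7.83 and 11.8 CPM, overlapped day 6 and did not pass the test (-0.33, adjusted p = 0.0888). With the correction for transcript length and GC content H3C11 was called lower (-0.53, adjusted p = 0.00394). H2BC9, an H2B gene near 1 CPM, was at 0.729, 0.998 and 1.2 CPM at day 6 and at 1.91, 1.19 and 1.75 CPM at day 18. The groups overlapped, and its call (0.4, adjusted p = 0.0358) was lost without replicate 1 or 2 of day 6 or replicate 1 or 3 of day 18 without Pb. The call of H2BC9 was also lost with no filter (adjusted p = 0.059), with no other group in the fit (0.0666) and without both length-dependent libraries (0.32, adjusted p = 0.147). Days 12, 15 and 18 were all set against the same libraries of day 6, so their changes are not independent of each other.

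**Figure D3:**
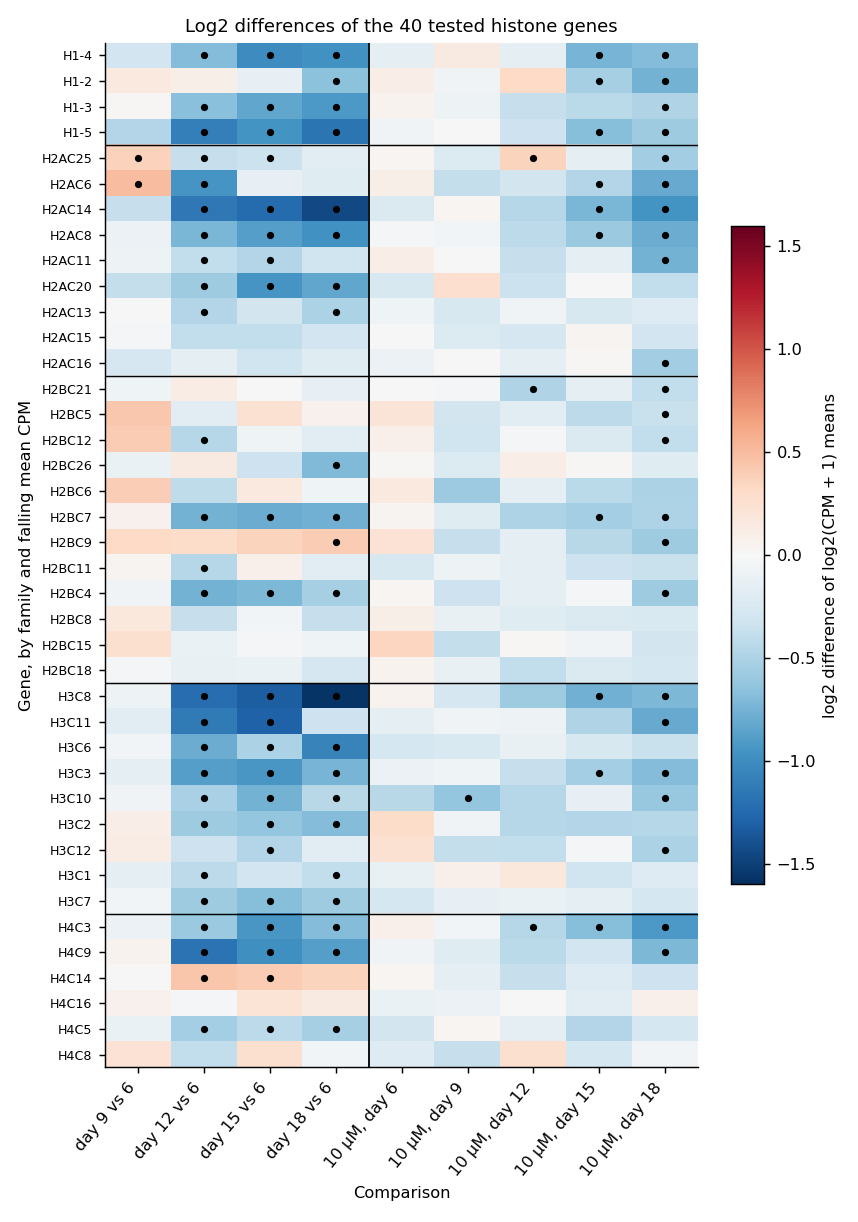
Log2 differences of the 40 tested members (rows, by family and falling mean CPM) for each day against day 6 without Pb (left of the line) and for 10 µM against 0 µM Pb within each day (right). Red is higher and blue is lower, on a scale cut at 1.6, and a dot marks an adjusted p under 0.05. At day 12 there are 26 dots and in the 10 µM column of day 18 there are 23.

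Pb at 10 µM went with lower histone gene levels at the later days. The summed level at day 6 was 543 ± 52.1 CPM (SD, n = 3) with 10 µM and 526 ± 37.4 CPM without, and at day 9 the libraries with 10 µM (460 to 513 CPM) overlapped those without (480 to 562). At day 12 they were at 260 to 309 CPM against 320 to 380. The values were 203 to 222 against 282 to 369 CPM at day 15, and 179 to 201 against 304 to 365 CPM at day 18. At these 3 days every library with 10 µM was below every library without Pb. Without H4C3 the same held, with 136 to 144 against 147 to 159 CPM at day 12 and 91.4 to 100.8 against 148 to 168 CPM at day 18. The genes that were not tested summed to 1.84 to 2.47 against 3.11 to 4.21 CPM at day 12. At day 18 they summed to 1.95 to 2.51 against 4.26 to 5.12 CPM, and at day 15 the libraries overlapped.

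Markers of mesenchymal or S-type neuroblastoma cells, a state that lines such as SH-SY5Y can also take, were lower with 10 µM as well. The 12 genes summed to 224.8 to 226.4 CPM without Pb and 150.1 to 216.5 CPM with 10 µM at day 6, and to 244.3 to 267.2 against 151.6 to 170.1 CPM at day 9. At day 12 the sums were 295.4 to 306.2 against 174.4 to 183.6 CPM, at day 15 206.8 to 234.8 against 187.2 to 198.1 CPM, and at day 18 250.4 to 290.1 against 213.5 to 223.2 CPM. The libraries did not overlap at any of the 5 days, days 6 and 9 included, at which the sums of all 68 histone genes did overlap. Of 10 tested markers, 6 were lower as the mean over days and 1, FOSL1, was higher. COL3A1 had -1.88, TWIST2 -0.71 and VIM -0.64. Noradrenergic markers (12 genes) summed to 12070 to 12850 CPM with 10 µM and 13390 to 13930 CPM without at day 12. At day 15 they summed to 16260 to 17090 against 17220 to 17650 CPM, so this sum too was lower without overlap at both days. Over all doses DBH alone had a mean of 7438 CPM at day 12 and 10880 CPM at day 15, most of the sum. The noradrenergic sums overlapped at days 6, 9 and 18. The part of either marker set in the histone result was not tested.

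Averaged over the 5 days, with each day compared with its own controls, 24 members were lower with 10 µM and none was higher, where 8.13% of all genes were lower and 6.93% higher. All 40 tested members had a difference below 0, with a median of -0.22 against 0.00 over all genes (0.0022). Of the 30 members with a mean of at least 1 CPM, 23 were lower. The calls covered every family, with 4 of 4 tested H1, 4 of 9 H2A, 7 of 12 H2B, 5 of 9 H3 and 4 of 6 H4 genes, of which H1-2, H2BC12 and H4C14 lost their calls with no filter and with only the groups compared. The smallest p-values belonged to H2AC6 (-0.37 ± 0.05, adjusted p = 1.32e-07), H4C3 (-0.4 ± 0.061, adjusted p = 1.53e-06) and H2AC14 (-0.47 ± 0.0752, adjusted p = 5.09e-06). H2BC21, which was level over the days, was lower by this test as well (-0.21, adjusted p = 0.00637). When day 18 was left out, 12 members were lower in place of 24, and the difference of H2AC25, which did not pass the test, turned from -0.11 to 0.002.

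Taken day by day, the member calls at 10 µM rose in number over time. At day 6 limma called no member, with 1 member at an unadjusted p under 0.05 and none called by edgeR. The members' median was 0.01, and 0.295% of all genes were higher and 0.36% lower. At day 9 only H3C10 was lower, at 1.23, 1.19 and 1.6 CPM against 3.07, 2.33 and 2.35 CPM (-0.61, adjusted p = 0.0481), where 0.446% of all genes were higher and 0.963% lower. This call was lost without any 1 of its 6 libraries. At day 12, 2 members were lower and 1 higher, against 2.34% and 3.03% of all genes. H4C3 was at 136, 124 and 166 CPM with 10 µM and at 221, 188 and 173 CPM without (-0.45, adjusted p = 0.0392). H2BC21 was at 9.48, 7.84 and 8.02 CPM against 12.1, 11 and 13.4 CPM (-0.48, adjusted p = 0.0151). H2AC25 went the other way, with 49.2, 46.2 and 42.8 CPM against 38.5, 34.7 and 34.2 CPM, without overlap (0.35 ± 0.0878, adjusted p = 0.00916). The call of H4C3 was lost with no filter (adjusted p = 0.0797), with only the groups compared (0.0733) and with edgeR (0.0616), and that of H2BC21 with only the groups compared (0.0622). The calls at day 12 fell to 1 member without replicate 2 of 0 µM or without replicate 1 or 2 of 10 µM of that day.

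At day 15, 10 members were lower with 10 µM and none was higher, against 3.18% and 2.5% of all genes. In all 10, which were chosen by their p-values, the libraries of the groups did not overlap. The same held for members that were not called, such as H2BC5 and H3C11. The share without overlap among all genes was not counted. H1-4 was at 5.21, 5.21 and 7.01 CPM with 10 µM and at 10.8, 9.1 and 11.2 CPM without (-0.75 ± 0.131, adjusted p = 0.000103). H4C3 was at 105, 89.8 and 89.8 CPM against 140, 132 and 193 CPM (-0.69, adjusted p = 0.000608). H2AC14 was at 2.77, 2.31 and 2.05 CPM against 4.37, 4.06 and 5.34 CPM (-0.73, adjusted p = 0.00374). The count was 4 without replicate 3 of 0 µM or without replicate 2 of 10 µM of day 15, and 6 without replicate 1 of 10 µM or in a fit of these groups alone.

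At day 18, 23 members were lower with 10 µM and none was higher, against 16.9% and 12.1% of all genes, and the medians were -0.48 and -0.05. H2AC6 was at 8.52, 5.83 and 6.41 CPM with 10 µM and at 14.3, 12.9 and 11.3 CPM without (-0.81 ± 0.112, adjusted p = 1.67e-07). H4C3 was at 100, 104 and 81.5 CPM against 197, 155 and 191 CPM (-0.92 ± 0.136, adjusted p = 8.4e-07). H2AC25 was now lower too, at 28.8, 27.1 and 26.6 CPM against 43.8, 38.5 and 40.1 CPM (-0.55 ± 0.0878, adjusted p = 3.32e-06). All 4 tested H1 genes were lower, and H1-2 reached 2.3, 2.73 and 1.85 CPM against 4.87, 3.92 and 4.82 CPM. H2AC14 reached 1.05, 1.57 and 1.9 CPM against 4.13, 4.02 and 3.38 CPM. Epithelial markers summed to 86.3 to 128.5 CPM without Pb and 89.8 to 100.9 CPM with 10 µM at this day. Of the 0 µM libraries of this day, replicate 1 is 1 of the 2 in which levels fell with transcript length. Without it 13 members were lower, without both libraries 14, and with a correction for transcript length and GC content 15, while a fit of these groups alone gave 10. H2AC6, H4C3 and H2AC25 kept their calls at day 18 in each of these fits.

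**Figure D4:**
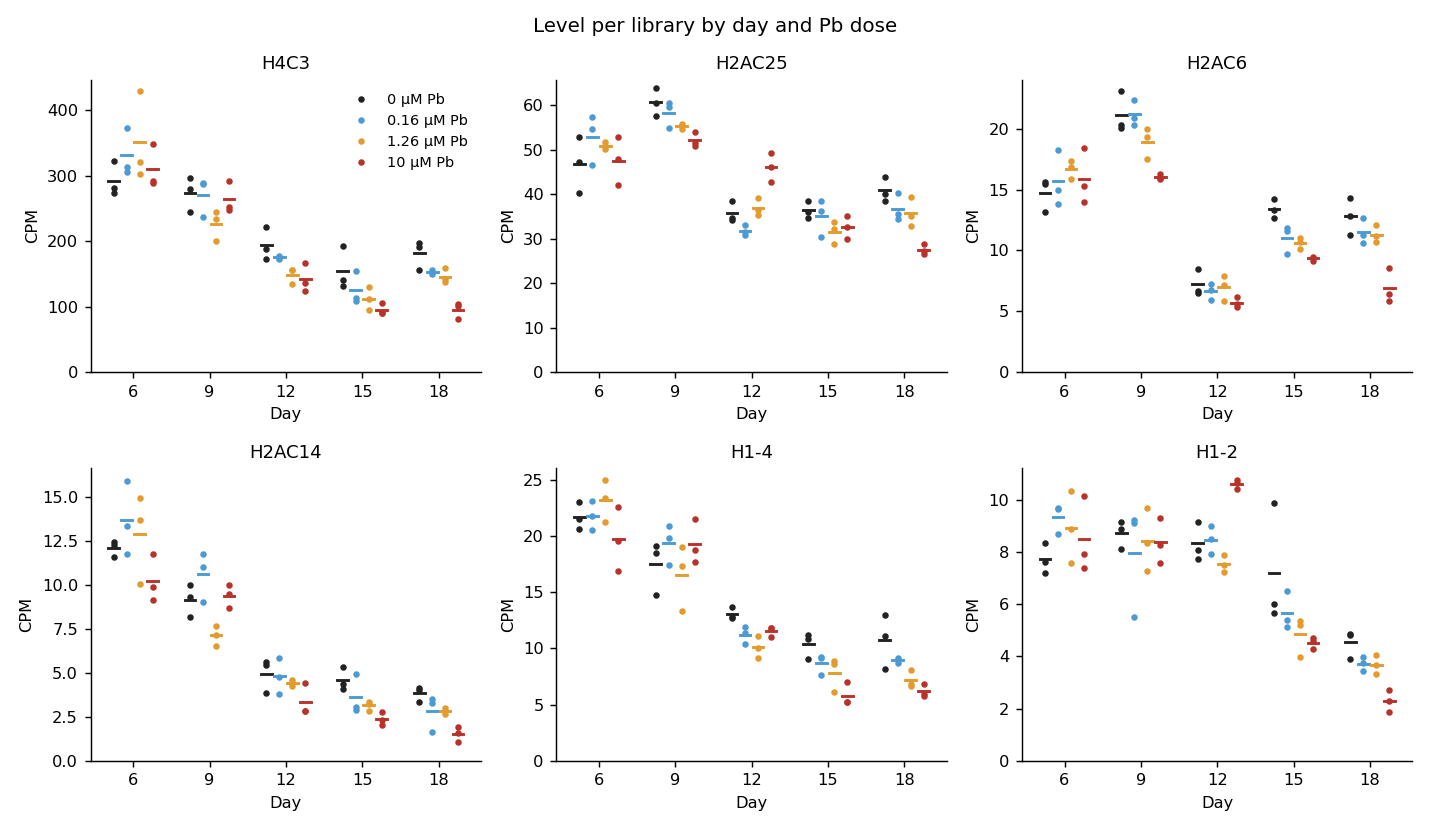
CPM per library of 6 members at each day, with 1 point per library, a bar at the mean of 3 libraries and colours for the Pb dose. H4C3 at day 18 is at 155 to 197 CPM without Pb and at 81.5 to 104 CPM with 10 µM, and H2AC25 at day 12 is at 34.2 to 38.5 CPM without Pb and at 42.8 to 49.2 CPM with 10 µM.

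Whether the difference at 10 µM changed between days was tested directly, with a moderated F test over the 5 within-day differences. It was called for 7 members, 17.5% of those tested, and for 21.7% of all genes, so the members' share was near that of all genes. The 7 members were H2AC25, H1-2, H4C3, H1-4, H2AC6, H2AC14 and H2AC11, of which 2 are linker and 4 are H2A genes. For H4C3 the log2 differences at days 6, 9, 12, 15 and 18 were 0.08, -0.05, -0.45, -0.69 and -0.92. H2AC14 followed a like course from day 9 on, with 0.03, -0.46, -0.73 and -0.96. H1-2 and H2AC25 had a positive difference at day 12 (0.32 and 0.35) and negative ones at day 18 (-0.75 and -0.55). H1-4 had its change between day 12 (-0.16) and day 15 (-0.75). H2AC6 was already lower at day 9 (-0.38), with 15.9, 15.8 and 16.3 CPM against 20.3, 23.1 and 20 CPM, although it did not pass the test at that day.

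The 2 lower doses gave fewer calls. With 1.26 µM, 5 members were lower as the mean over days and none was higher, against 2.17% and 1.67% of all genes, and the medians were -0.12 and 0.01. They were H3C10 (-0.33 ± 0.0754, adjusted p = 0.00546), H1-4 (-0.24 ± 0.0584, adjusted p = 0.00961), H4C3 (-0.23 ± 0.061, adjusted p = 0.0188), H3C3 and H2BC7. At day 18 H1-4 stood at 6.7, 6.83 and 8.11 CPM with 1.26 µM, below the 8.21 to 13 CPM without Pb. The count of 5 became 3 without replicate 3 of 0 µM or of 1.26 µM of day 15, 8 without replicate 1 of 1.26 µM of day 15, 9 without replicate 3 of 0 µM of day 18, and 1 without all of day 18. Within single days there were 4 member calls at 1.26 µM over the 5 days, 1 at day 15 (H4C9) and 3 at day 18 (H1-4, H2BC7 and H3C10), all lower, against 0.902% lower and 1.92% higher among all tests, and 2 were left without replicate 1 of 0 µM or of 1.26 µM of day 18.

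With 0.16 µM, limma called no member as the mean over days, with 3 at an unadjusted p under 0.05 and none by edgeR, while 0.059% of all genes were higher and 0.0655% lower. The members' median was -0.07 and 33 of 40 differences were below 0. Within days the only call was H3C10 at day 18, at 0.456, 1.18 and 1.01 CPM against 1.31, 1.63 and 2.35 CPM (-0.56, adjusted p = 0.0384), against 0.236% lower and 1.04% higher among all tests. It was lost without replicate 1 or 3 of 0 µM or replicate 1 or 2 of 0.16 µM of day 18, and there were 2 calls without replicate 3 of 0.16 µM of day 6. The summed level with 0.16 µM was 306 to 316 CPM at day 12, below the 320 to 380 CPM without Pb, and 288 to 296 against 304 to 365 CPM at day 18, while the libraries of days 6, 9 and 15 overlapped. With 1.26 µM the sums were below those without Pb at day 9 already (405 to 469 against 480 to 562 CPM), where 10 µM overlapped, and at days 12 (267 to 291 CPM), 15 (213 to 270) and 18 (267 to 288), without overlap. At day 12 the mean was 280 CPM with 1.26 µM and 283 CPM with 10 µM, so the sums did not follow the order of the doses at days 9 and 12. Nor did they at day 6, with means of 526, 587, 612 and 543 CPM at 0, 0.16, 1.26 and 10 µM. At that day 29 of 40 member differences were above 0 with 0.16 µM and 32 with 1.26 µM, and none was called. The 3 doses share the 0 µM libraries, so their differences are not independent of each other.

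The members were also described by the annotated form of their transcripts. Of 22 members with a GENCODE transcript that runs over 100 bases past the stem-loop, 19 were tested, and 21 of the other 46. At day 18 against day 6 the former had 7 lower and 1 higher with a median of -0.27, a share near the 34.7% of all genes that were lower, and the latter 14 lower and none higher with a median of -0.66. With 10 µM as the mean over days the counts were 11 and 13 lower with medians of -0.21 and -0.23, where 8.13% of all genes were lower. Of 8 members with a known polyadenylated form (H1-2, H2AC6, H2BC4, H2BC5, H2BC12, H2BC21, H2AC18 and H2AC19), 6 were tested, and 2 of these were lower at day 18 against day 6, again near the share of all genes, and all 6 with 10 µM at day 18, where 16.9% of all genes were lower. With the correction for transcript length and GC content H2AC6 (-0.27, adjusted p = 0.028) and H2BC12 (-0.4, adjusted p = 0.00825) were called lower at day 18 against day 6 too. By promoter, 10 of 15 tested members with an octamer and 12 of 22 with a promoter but no octamer were lower with 10 µM as the mean over days. No difference between these subsets was tested. The split by the stem-loop rests on annotation, since many transcripts searched stop at the end of the coding sequence or shortly past it. H1-2, H2BC5, H2BC12, H2AC18 and H2AC19, listed above with a known polyadenylated form, fall among the other 46. The split thus does not separate members with such a form from those without. How the cDNA was primed is not given in the sources used here, and so the share of transcripts with and without a poly-A tail that entered the libraries is unknown.

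The tested divergent pairs were set side by side. H2AC11 and H2BC11 were both lower at day 12 (-0.39 and -0.46) and with 10 µM as the mean over days (-0.23 and -0.24). H2AC6 and H2BC4 were both lower at day 12 (-0.94 and -0.75). In the pair of H2AC20 and H2BC21, H2AC20 fell at day 12 (-0.57, adjusted p = 0.0116) while H2BC21 had 0.12 (adjusted p = 0.451). H2AC25 was lower at day 12 (-0.37) while H2BC26 had 0.14 (adjusted p = 0.488), and at day 18 H2BC26 was lower (-0.7) while H2AC25 had -0.19 (adjusted p = 0.0588). At day 18 H2AC25 was called lower with the correction for transcript length and GC content (-0.45, adjusted p = 2.57e-06) and without both length-dependent libraries (-0.24, adjusted p = 0.0264). The differences within pairs were not tested.

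Of 24 genes for histone mRNA synthesis and 3 prime end processing, 17 were lower and 2 higher at day 12, 20 and 1 at day 15, and 21 and 1 at day 18, where 34.6%, 32.2% and 34.7% of all genes were lower. NPAT, the coactivator of histone gene transcription in S phase, went from a mean of 32.1 CPM at day 6 to 16 CPM at day 12 (-0.97 ± 0.114), and SLBP fell by 0.57 at day 12 and 1.06 at day 18. LSM10, a subunit of the U7 particle that cuts histone pre-mRNA, rose instead, from 29.6 to 56.6 CPM at day 12 (0.91). With 10 µM as the mean over days, where 8.13% of all genes were lower, 4 of the 24 were lower, CDK2, E2F2, CCNE1 and E2F1, while NPAT (-0.05, adjusted p = 0.561) and SLBP (-0.15, adjusted p = 0.167) did not pass the test.

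Of 22 genes of S phase and DNA replication, all were lower at days 12, 15 and 18, with medians of -1.02, -1.18 and -1.25. Among all genes 34.6%, 32.2% and 34.7% were lower at these days. With 10 µM as the mean over days 21 were lower, with a median of -0.28, against 8.13% of all genes. MCM5, which belongs to the helicase that unwinds DNA at the fork, was at 243 CPM at day 6 and 76.4 at day 12 (-1.66), and MCM7 was lower with 10 µM by 0.39 on the log2 scale. All 12 mitosis genes were lower at days 12, 15 and 18 and with 10 µM, MKI67 by 0.75 at day 12. The medians of the 40 tested histone members were -0.46, -0.41 and -0.42 at days 12, 15 and 18 and -0.22 with 10 µM. The part of the S phase genes in the histone result was not tested. Histone chaperones had 14 of 19 tested genes lower and 1 higher at day 12, against 34.6% and 21.6% of all genes. With 10 µM 8 were lower and 1 higher, against 8.13% and 6.93% of all genes. ASF1B, which hands H3 and H4 to the assembly machinery, fell from 96.1 at day 6 to 52 CPM at day 12.

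Replication-independent histone genes, most of which make polyadenylated mRNAs outside S phase too, were set beside the members. Whether the genes of this list follow the cell cycle here was not tested. Of 11 tested, 7 were lower and 1 higher at day 12 with a median of -0.36, against 34.6% and 21.6% of all genes. With 10 µM as the mean over days 7 were lower with a median of -0.1, against 8.13% of all genes. CENPA, the centromeric H3, was lower with 10 µM (-0.49, adjusted p = 2.15e-10), as were H2AX (-0.38) and H2AZ1 (-0.17). H2AJ was the one that rose, from 3.05 CPM at day 6 to 6.04 at day 12 (0.8) and 9.59 at day 18 (1.38). H3-3B had 0.0034 at day 12 and -0.01 with 10 µM and did not pass either test. Of 10 non-coding RNAs, most of them known to lack a poly-A tail or to stay in the nucleus, 5 were tested. These were MALAT1, NEAT1, RMRP, RN7SL1 and SNHG1. None was called with 10 µM as the mean over days by limma, with none at an unadjusted p under 0.05 (RMRP was lowest, at 0.0554).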

How the data were processed

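RNA was measured by sequencing 60 libraries, 3 for each of 20 groups of day and Pb dose, made by tagmentation of cDNA with a barcode per well, per the labels' protocols. The authors deposited 1 table of CPM values (reads per 1000000 assigned reads; each library sums to that) for 37334 genes. STAR, featureCounts, FastQC, MultiQC and GRCh38 are named in the submitters' processing notes, and versions, annotation, strand setting and cDNA priming are not given in the sources used here. Every CPM value came out as a whole number of reads (100% within 0.01 read), which gave depths of 16.6 to 50.5 M reads.

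The 15263 genes that reached 1 CPM in 3 or more libraries were tested with limma 3.58.1 in R 4.3.3 on log2(CPM + 1), with 1 mean per group over all 60 libraries (40 residual degrees of freedom), an intensity trend, and two-sided p-values with Benjamini-Hochberg adjustment over all genes tested and a threshold of 0.05. Every adjusted p in the text is limma's unless edgeR is named. edgeR 4.0.16 on the recovered reads was an alternative, beside another pseudocount, no filter, rescaling, only the groups compared, the replicate number as a block, a length and GC correction (14829 genes with values), and fits without single libraries, without the 2 libraries low in long transcripts and without day 18. The 3 dishes of a group differed by more than sampling noise (chi-square per degree of freedom of at least 4.28 for any pair). The limma script was tested on simulated data.

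Members and gene lists were chosen with earlier results of these data known. The rule for named genes took the 12 tested members with the highest mean CPM, in each contrast at most 3 members called higher and 3 called lower (ranked by p), and at most 4 genes of each list, also ranked by p. Others named, such as untested members, pair neighbours, SLBP, H3-3B and MKI67, were chosen after their values were seen. Stem-loops were searched in GENCODE v29 transcripts, and promoters and positions come from RefSeq (GRCh38.p14).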

Additional observations from a re-analysis of the deposited data

Results flagged for a closer look

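The difference between 10 µM and 0 µM Pb changed between days for 7 members, by limma's F test over the 5 within-day differences with Benjamini-Hochberg adjustment over all genes. H2AC25 had an adjusted p of 6.32e-06, H1-2 of 0.000262 and H4C3 of 0.000273. H1-4 had 0.000634, H2AC6 0.000637, H2AC14 0.00991 and H2AC11 0.0337. H2AC25 and H1-2 were above 0 at day 12 and below 0 at day 18, whereas the differences of H4C3 were below 0 from day 9 on. H2AC11 had -0.37 at day 12 and -0.75 at day 18, and its call was lost without replicate 1 of day 6 without Pb, replicate 3 of day 18 without Pb, or replicate 2 or 3 of day 18 with 10 µM. The call of H2AC11 was also lost with no filter (adjusted p = 0.0682), with only the groups compared (0.0962), without the 2 libraries low in long transcripts (0.0607) and without day 18 (0.41). That of H2AC14 was lost without day 18 (0.107), and the other 5 calls were kept in every alternative fit.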

How the results depend on the processing

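Fits without 1 library gave 1 to 3 member calls at day 9 against day 6, 20 to 25 at day 12, 19 to 22 at day 15 and 19 to 22 at day 18. They gave 18 to 25 for 10 µM as the mean over days, 0 at day 6, 0 at day 9, 1 to 4 at day 12, 4 to 9 at day 15 and 13 to 20 at day 18. They gave 3 to 9 for 1.26 µM and 0 for 0.16 µM as means over days, 2 to 6 and 0 to 2 summed within days, and 6 to 9 for the change of the 10 µM difference between days. Fitting only the groups compared gave 1 call at day 9 against day 6, 0, 1, 6 and 10 for 10 µM at days 9, 12, 15 and 18, and 0 within days for 1.26 µM and for 0.16 µM. Without the 2 libraries low in long transcripts there were 14 for 10 µM at day 18, 1 for the mean of 0.16 µM, and 2 and 0 within days for 1.26 and 0.16 µM. Without day 18 there were 12 for the mean of 10 µM and 1 for that of 1.26 µM, and H3C10, H1-4 and H4C3 were lost there at 1.26 µM. The length and GC correction gave 2, 5 and 15 for 10 µM at days 9, 12 and 18 and 0 within days for 0.16 µM. The call of 10 µM at day 9 became 0 with a pseudocount of 0.25, no filter, rescaling and edgeR, and within days no filter gave 2 for 1.26 µM and 0 for 0.16 µM, and edgeR 0 for 0.16 µM. The causes were not tested.

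Whether replicate numbers pair the dishes was not settled. Within days, correlations of same-number pairs ran from -0.356 to 0.532 (median 0.0149), and 23 of 90 were over 0.1. The median for pairs with other numbers was 0.00389. With the replicate number as a block, 22 members were called for the mean of 10 µM, 23 at day 18 and 0 at day 9, where the unblocked fit had 1. Signs turned for H2BC26 at day 12 against day 6 without replicate 3 of day 6 without Pb (-0.003462, range to 0.3092), for H2BC5 at day 18 against day 6 with the length and GC correction (-0.1492), and for H2AC25 as the mean of 10 µM without day 18 (0.002002), none of them called. Rescaling moved the median of all genes at day 12 against day 6 from -0.107 to -0.00649 and that of the members from -0.464 to -0.411. Over 74 values of named members, 959 of 1068 fits without a library and 556 of 618 others kept direction and side of the threshold. H1-2, H2BC12 and H4C14 as the mean of 10 µM lost their calls in 21, 18 and 19 of 30 fits without a library. The values of members outside the planned list were added after seeing the data. Depth limits members near 1 CPM most.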
